A study of Saccharomyces cerevisiae with 10 samples.

Results

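The genes described here are 10 yeast genes for growth on carbon sources of a few carbon atoms: FBP1 and PCK1 of gluconeogenesis, ICL1, MLS1, MDH2 and CIT2 of the glyoxylate cycle, ACS1 of acetate activation, and JEN1, ADY2 and SFC1 of carboxylate transport. They were taken by gene symbol or alias from the annotation of the arrays, which gave 1 spotted row for each of the 10 genes, among 6277 rows in all. The choice used no measured value, although earlier results of these data were known when it was made. Total RNA of 2 Saccharomyces cerevisiae strains, DJ28 and FY23, was hybridised together on each of 10 spotted arrays with 2 dyes. DJ28 was in Cy3 on arrays 1 to 5 and in Cy5 on arrays 6 to 10, and FY23 carried the other dye. The series title describes a mutant in which the Ras/cAMP pathway is constitutively active, and PDE2, the gene of the high-affinity cyclic AMP phosphodiesterase, is a keyword of the labels. The labels give neither the full genotype of the strains, nor the growth medium, growth phase or number of cultures, so the p-values measure only the spread between arrays, which may be technical.

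Yeast that has glucose represses this pathway. When glucose runs out, lactate, acetate and ethanol are taken up and turned into acetyl-CoA, the glyoxylate cycle joins acetyl units into dicarboxylic acids without losing them as carbon dioxide, and gluconeogenesis makes sugar phosphates from these acids. The promoters are activated through the Snf1 kinase and the transcription factors Cat8, Sip4 and Adr1. Protein kinase A, the kinase that cyclic AMP switches on, signals that glucose is present and is known to oppose this program.

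A difference is given throughout as the log2 ratio of DJ28 over FY23, after each array was centred on its median, so a negative value is a lower signal in DJ28. The deposited values keep the direction of the dyes, and the sources used here do not state which dye is the numerator. The ratio was taken as Cy5 over Cy3, which puts PDE2 lower in DJ28, since the study is known to concern a strain without PDE2. This direction is likely and not settled. If the ratio runs the other way, each statement of higher or lower turns round while sizes and p-values stay. As read here, PDE2 had a difference of -1.96 ± 0.168 (SE, limma, adjusted p = 0.00153) and was below 0 on 8 of the 8 replicates with a value. The values were read as base 2 from their range, which has an upper limit of 16.61 on 4 arrays.

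Arrays 3 to 10 held 5755 to 6048 values each, array 2 held 4342 and array 1 held 2230. Arrays 6 and 7 differed from each other with an SD of 0.125, against at least 0.423 for any other pair, and their mean was counted as 1 replicate. The 9 replicates that resulted comprise 5 that have DJ28 in Cy3 and 4 in the swapped orientation. All 10 genes had the 3 values in each orientation that the test required. JEN1, ADY2, SFC1 and CIT2 had no value on array 1, and PCK1 had none on array 4. Arrays 4, 5, 9 and 10, the ones with values at the upper limit, are set apart from the remaining arrays where values within array sets are given.

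All 10 genes had a negative fitted difference between DJ28 and FY23, and 1 of them, JEN1, passed the test over all genes. The fitted differences ran from -0.87 for JEN1 to -0.09 for ICL1, with a median of -0.42. Over all 5642 genes tested the median was 0.032, and 43.9% of the differences were negative. With limma's adjusted p under 0.05, 1 of the 10 genes was called lower and 0 were called higher, against 0.461% and 0.0886% of all genes tested. At an unadjusted p under 0.05, 8 of the 10 were lower, against 7.39% of all genes tested. The exceptions were FBP1 and ICL1. Because RNA was taken from whole cultures, less RNA per cell and fewer cells that express a gene cannot be told apart.

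**Figure D1:**
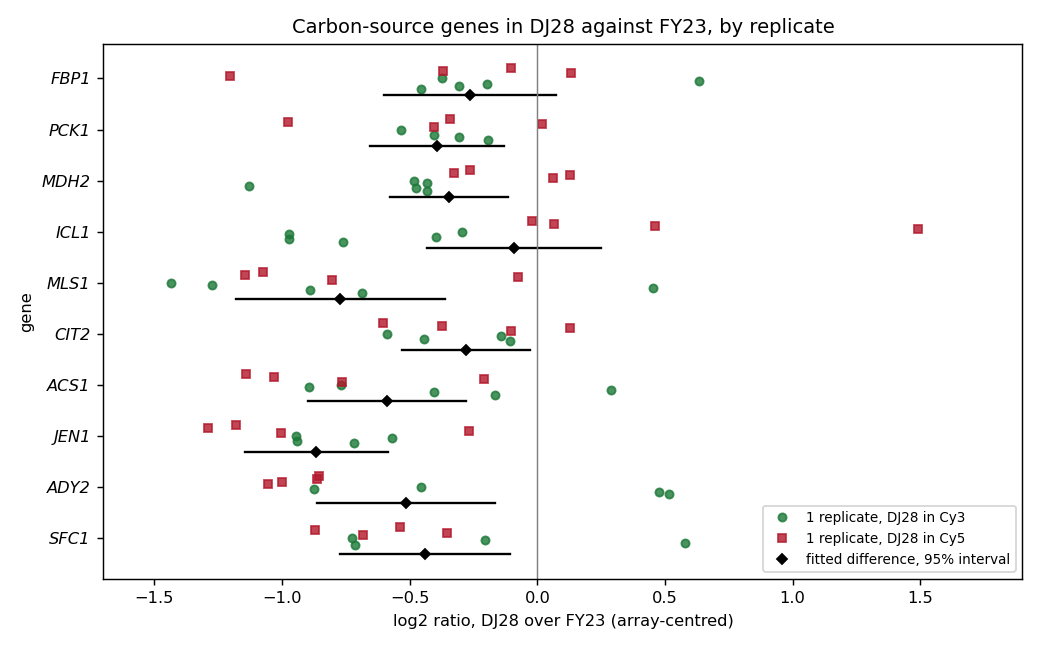
The log2 ratio of DJ28 over FY23 for each of the 10 genes, with 1 point per replicate (circles for DJ28 in Cy3, squares for DJ28 in Cy5, arrays 6 and 7 as 1 point) and, under the points, the fitted difference with its 95% interval. JEN1 is the gene whose points all lie below 0, while ICL1 splits by dye, with its Cy3 points between -0.97 and -0.30 and its Cy5 points between -0.023 and 1.49. The MDH2 points do not overlap between the dyes either, at -1.13 to -0.43 (Cy3) and -0.33 to 0.13 (Cy5).

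The largest of the 10 differences was that of a transporter. JEN1 (YKL217W) encodes the plasma membrane permease that imports lactate and pyruvate together with protons. With DJ28 in Cy3 its log2 ratio was -0.72 on array 2, -0.94 on array 3, -0.57 on array 4 and -0.94 on array 5. With the dyes swapped the ratio was -1.01 for arrays 6 and 7 averaged, -0.27 on array 8, -1.29 on array 9 and -1.18 on array 10. JEN1 was thus below 0 on 8 of 8 replicates, and array 8 gave the value closest to 0. The fit gave a 1.82-fold lower signal, at -0.87 ± 0.127 (SE) and a 95% interval from -1.15 to -0.58 (limma, adjusted p = 0.0127). It was the 12th lowest difference of the 5642.

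The JEN1 difference had nearly the same size with either dye, at -0.79 when DJ28 was in Cy3 and -0.94 when it was in Cy5. It was -0.997 on arrays 4, 5, 9 and 10 alone (limma, adjusted p = 0.0431) and -0.73 on the remaining arrays alone (adjusted p = 0.413). In an exact two-sided permutation of the dye orientations JEN1 had an unadjusted p of 0.0286, the smallest that 8 replicates allow, as did PCK1 and ADY2. MDH2 had the smallest that 9 replicates allow, 0.00794, and the exact p was 0.0238 for MLS1 and for ACS1, 0.0571 for CIT2, 0.0857 for SFC1, 0.159 for FBP1 and 0.619 for ICL1. The permutation and limma's main fit both treat the replicates as independent. Some arrays were more alike than others, with r = 0.694 for arrays 1 and 2, 0.675 for 3 and 8 and 0.618 for 9 and 10, against -0.0075 for 3 and 4. Neither test accounts for this. In limma the adjusted p of JEN1 was 0.0554 without array 9 and 0.0607 without array 10, so the call rests on both arrays being present. It was 0.0524 without the sparse arrays 1 and 2. JEN1 also lost the call with no centring (0.984), with DJ28 in Cy3 alone (0.1985) and with DJ28 in Cy5 alone (0.146). The difference itself stayed between -0.997 and -0.73 in every alternative fit.

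ADY2 (YCR010C) encodes a plasma membrane protein needed for acetate uptake. Its log2 ratio with DJ28 in Cy5 was -1.06 on the mean of arrays 6 and 7, -1.001 on array 8, -0.86 on array 9 and -0.86 on array 10. With DJ28 in Cy3 it was 0.52 on array 2, 0.48 on array 3, -0.88 on array 4 and -0.46 on array 5. The Cy5 arrays lay close together below 0, while the Cy3 arrays fell on both sides. The fitted difference was -0.51 with a 95% interval from -0.86 to -0.16 (limma, adjusted p = 0.241), beside a dye effect of -0.43 (adjusted p = 0.145).

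SFC1 (YJR095W) encodes the mitochondrial carrier that exchanges succinate for fumarate and so links the glyoxylate cycle to the mitochondrion. Its log2 ratios had a lowest value of -0.87, a median of -0.61 and a highest of 0.58, and 7 of 8 replicates were below 0. The exception was array 3. SFC1 had a fitted difference of -0.44, with a 95% interval from -0.77 to -0.11 (limma, adjusted p = 0.284).

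ACS1 (YAL054C) encodes the acetyl-CoA synthetase that is repressed by glucose and activates acetate. With DJ28 in Cy3 its log2 ratio was -0.17 on array 1, -0.41 on array 2, 0.29 on array 3, -0.90 on array 4 and -0.77 on array 5. With the dyes swapped the ratio was -0.76 for arrays 6 and 7 averaged, -0.21 on array 8, -1.03 on array 9 and -1.14 on array 10. Of the 9 replicates 8 were below 0, and array 3 was the exception again. For ACS1 the fit gave -0.59 with a 95% interval from -0.90 to -0.28, and it did not pass (limma, adjusted p = 0.129).

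Within the glyoxylate cycle the genes were unequal in size. MLS1 (YNL117W) encodes malate synthase, which joins glyoxylate and acetyl-CoA. Its log2 ratio with DJ28 in Cy3 was -0.69 on array 1, -0.89 on array 2, 0.45 on array 3, -1.28 on array 4 and -1.44 on array 5. With the dyes swapped the ratio was -0.81 for arrays 6 and 7 averaged, -0.075 on array 8, -1.15 on array 9 and -1.08 on array 10. MLS1 was below 0 on 8 of 9 replicates, with arrays 3 and 8 far from the rest. Its difference of -0.77 was the 25th lowest of the 5642, and its residual SD of 0.647 was wider than the 0.373 that was the median over all genes. It did not pass (limma, 95% interval from -1.18 to -0.36, adjusted p = 0.129). Without array 3 both MLS1 and ACS1 passed, at -0.92 (limma, adjusted p = 0.0104) and -0.67 (adjusted p = 0.0413). That fit tested 4232 genes in place of 5642, so the adjustment differs as well. With array 3 kept and 4 values required in each orientation, 3977 genes were tested. The adjusted p was then 0.0657 for MLS1 and 0.0661 for ACS1 (limma).

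For MLS1, ACS1 and ADY2 the array sets gave values of different size. MLS1 was at -1.23 on arrays 4, 5, 9 and 10 alone (limma, adjusted p = 0.0303) and at -0.41 on the remaining arrays (adjusted p = 0.443). ACS1 was at -0.96 (adjusted p = 0.036) and -0.29 (adjusted p = 0.454) in the same 2 sets, and ADY2 at -0.76 (adjusted p = 0.0589) and -0.27 (adjusted p = 0.465). The test of the difference between the sets, chosen after the values were seen, gave an adjusted p of at least 0.739 for each of the 10 genes in limma, with unadjusted p = 0.0195 for MLS1, 0.00868 for ACS1 and 0.0205 for ADY2. Whether the sets differ for these genes is therefore not settled.

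ICL1 (YER065C) encodes isocitrate lyase, the enzyme that splits isocitrate at the entry of the cycle. With DJ28 in Cy3 its log2 ratio was -0.76 on array 1, -0.97 on array 2, -0.40 on array 3, -0.97 on array 4 and -0.30 on array 5. With the dyes swapped the ratio was 1.49 for arrays 6 and 7 averaged, 0.46 on array 8, 0.067 on array 9 and -0.023 on array 10. The values of the 2 orientations did not overlap (means -0.68 and 0.50). This was not particular to ICL1, since those of MDH2, given below, did not overlap either. How many of all genes split in this way was not counted. The dye effect of ICL1, 0.59, did not pass (limma, adjusted p = 0.0656). Beside it the strain difference was -0.09 with a 95% interval from -0.43 to 0.25 (adjusted p = 0.816). The interval of ICL1 leaves room for a difference in either direction.

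**Figure D2:**
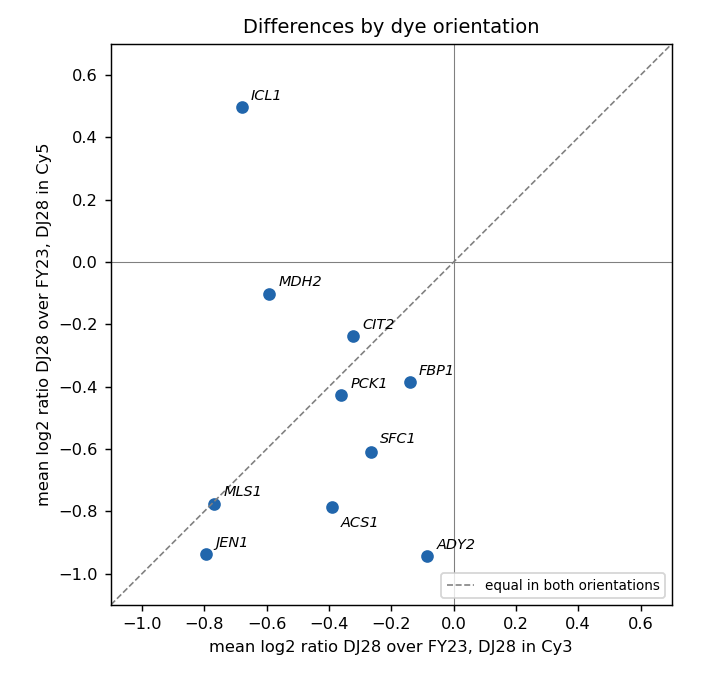
Mean log2 ratio of DJ28 over FY23 with DJ28 in Cy3 (horizontal) against DJ28 in Cy5 (vertical), 1 point per gene, with a dashed line where both orientations are equal. JEN1 (-0.79 and -0.94) and MLS1 (-0.77 and -0.78) lie near the line, and ICL1 (-0.68 and 0.50) and ADY2 (-0.08 and -0.94) lie far from it.

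MDH2 (YOL126C) encodes the cytosolic malate dehydrogenase, which serves both the glyoxylate cycle and gluconeogenesis. Its log2 ratio with DJ28 in Cy3 was -0.43 on array 1, -0.48 on array 2, -1.13 on array 3, -0.43 on array 4 and -0.49 on array 5. With the dyes swapped the ratio was 0.060 for arrays 6 and 7 averaged, 0.13 on array 8, -0.33 on array 9 and -0.27 on array 10. Array 3 stood apart from 4 tightly grouped values, and array 3 was here the lowest, whereas it was the highest for MLS1, ACS1 and SFC1. MDH2 had a fitted difference of -0.35, with a 95% interval from -0.58 to -0.12 (limma, adjusted p = 0.23).

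CIT2 (YCR005C) encodes the peroxisomal citrate synthase, known as a target of retrograde signalling from the mitochondrion. Its log2 ratios had a lowest value of -0.60, a median of -0.26 and a highest of 0.13, with 7 of 8 replicates below 0. The fit gave -0.28, with a 95% interval from -0.53 to -0.029 (limma, adjusted p = 0.343).

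The 2 enzymes particular to gluconeogenesis had smaller differences than the transporters in these fits, a contrast that was not tested. PCK1 (YKR097W) encodes phosphoenolpyruvate carboxykinase, which makes phosphoenolpyruvate from oxaloacetate. Its log2 ratio with DJ28 in Cy3 was -0.19 on array 1, -0.31 on array 2, -0.40 on array 3 and -0.54 on array 5. With the dyes swapped the ratio was -0.41 for arrays 6 and 7 averaged, 0.020 on array 8, -0.98 on array 9 and -0.34 on array 10. PCK1 was below 0 on 7 of 8 replicates. The fitted difference was -0.39 (95% interval from -0.66 to -0.13, limma, adjusted p = 0.237), and the orientations averaged -0.36 (DJ28 in Cy3) and -0.43 (DJ28 in Cy5).

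FBP1 (YLR377C) encodes fructose bisphosphatase, the enzyme that reverses the phosphofructokinase step. Its log2 ratios had a lowest value of -1.203, on the mean of arrays 6 and 7, a median of -0.31 and a highest of 0.63, on array 4, and 7 of 9 replicates were below 0. The fitted difference was -0.26, with a 95% interval from -0.60 to 0.074 (limma, adjusted p = 0.461). It was -0.13 without arrays 6 and 7, -0.36 without array 4, -0.053 on arrays 4, 5, 9 and 10 alone and -0.43 on the remaining arrays. The spread of FBP1 was as wide as its interval shows, and neither no difference nor a 1.5-fold lower signal in DJ28 lies outside it.

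Replicate by replicate, most of the 10 genes were below 0 on every replicate but array 8. The median over them was -0.44 on array 1, -0.44 on array 2, -0.30 on array 3, -0.57 on array 4, -0.56 on array 5, -0.72 for arrays 6 and 7 averaged, -0.028 on array 8, -0.87 on array 9 and -0.57 on array 10. On array 1, which had values for 6 of the genes, all 6 were below 0, and on arrays 5 and 10 all 10 were. On array 8 only 5 of 10 were below 0, and on array 3 it was 6 of 10, while 47.9% and 51.2% of all genes tested lay below 0 on these arrays. The order of genes within an array does not depend on centring. In that order JEN1 lay at the percentile 0.2 from the bottom on array 10, 0.715 on array 9, 1.41 on array 3, 4.4 on array 5, 7.07 on array 4 and 7.48 on array 2. On arrays 6, 7 and 8 it was at 8.39, 9.0 and 27.6.

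Several of the genes have an isozyme or a paralogue that is used in other compartments or conditions, and 9 such pairs were compared within each array, a comparison chosen after the values were seen. MDH2 differed from both of its isozymes. MDH1, the mitochondrial malate dehydrogenase, had a difference of 0.0084 and MDH3, the peroxisomal one, had 0.18. Taken within arrays, MDH2 minus MDH1 was -0.35, below 0 on 8 of 9 replicates, and MDH2 minus MDH3 was -0.52, below 0 on 9 of 9. Both had an exact two-sided permutation p of 0.00794 over the dye orientations, and p = 0.0357 adjusted over the 9 pairs. The gap to MDH1 was -0.15 when DJ28 was in Cy3 and -0.56 when it was in Cy5, and the gap to MDH3 was -0.56 and -0.48. MDH1 itself split by dye orientation, as ICL1 did, with means of -0.44 for DJ28 in Cy3 and 0.45 for DJ28 in Cy5 that average to 0.0084. Its dye effect of 0.45 did not pass (limma, adjusted p = 0.0614). MDH2 was also lower with DJ28 in Cy3, with means of -0.59 for DJ28 in Cy3 and -0.10 for DJ28 in Cy5. The dye effect of MDH2 was 0.24 (limma, adjusted p = 0.189). With any 1 replicate left out the 2 fitted gaps stayed between -0.39 and -0.32 to MDH1 and between -0.57 and -0.46 to MDH3.

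The other 7 pairs had adjusted p from 0.154 to 0.743 in the exact permutation test. For 6 of these 7 the 7 or 8 replicates with a value allow no exact p under 0.0286, which beside the other pairs would adjust to 0.0857, so with the other pairs as they are none of these 6 could have passed, and a missed threshold says nothing about them. ACS1 was 0.58 below ACS2, the isozyme that cells use on glucose and whose own difference was -0.03 (95% interval from -0.31 to 0.24). MLS1 was 0.48 below DAL7, a second malate synthase that serves allantoin breakdown and that had -0.29 itself. ADY2 had -0.51 beside -0.41 for ATO2 and -0.25 for ATO3, its relatives in the same membrane protein family. CIT2 had -0.28 beside -0.19 for CIT1, the mitochondrial citrate synthase, and -0.01 for CIT3. ICL1 had -0.09 beside 0.14 for ICL2. The sources used here do not state which part of each gene the spots cover, and cross-hybridisation between these related genes was not tested.

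**Figure D3:**
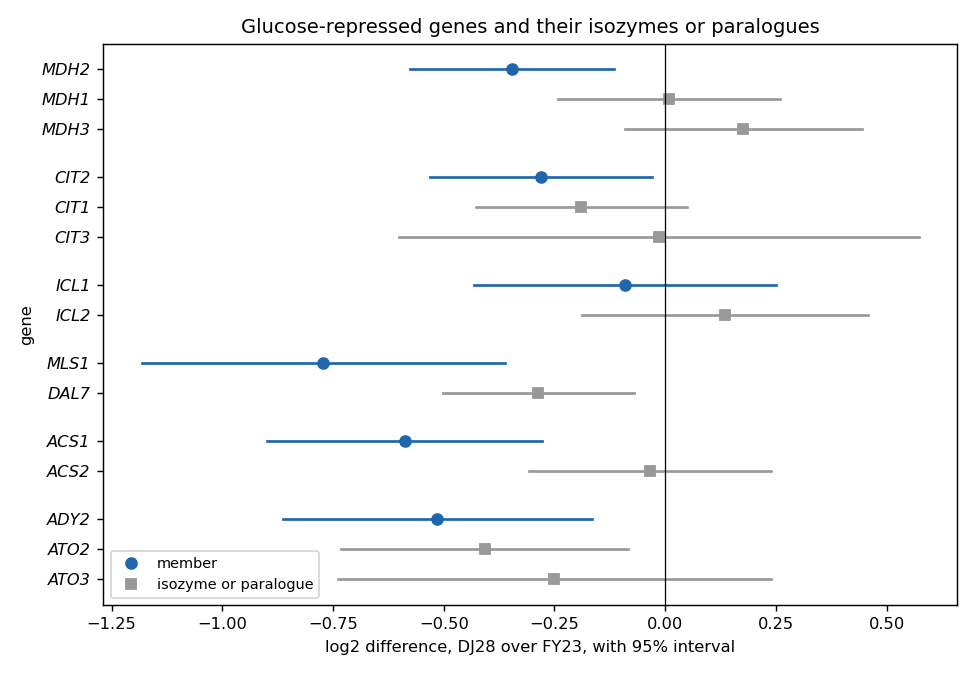
Log2 difference of DJ28 over FY23 with its 95% interval for 6 of the genes (circles) and, under each, its isozymes or paralogues (squares). MDH2 (-0.35) lies below MDH1 (0.0084) and MDH3 (0.18), whereas CIT2 (-0.28) and CIT1 (-0.19), and ADY2 (-0.51) and ATO2 (-0.41), lie close together.

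Of the enzymes that feed carbon into the pathway, 3 of 10 were lower in DJ28 past limma's test, against 0.461% of all genes tested, and 0 were higher, 9 of the 10 had a negative difference, and the list median was -0.29. ACO1, the aconitase that makes the isocitrate of the glyoxylate and tricarboxylic acid cycles, was at -0.64 (adjusted p = 0.0181). ALD6, the main cytosolic acetaldehyde dehydrogenase, was at -0.58 (adjusted p = 0.0176), and ALD4, the mitochondrial one, at -0.54 (adjusted p = 0.0435). Each of these 3 genes was below 0 on 9 of 9 replicates. All 3 lost the call without array 9, without array 10, and without arrays 6 and 7 together, with adjusted p from 0.0511 to 0.185. They also lost it without arrays 1 and 2 together (adjusted p from 0.0647 to 0.218), with no centring (0.984) and with either dye orientation alone (0.128 to 0.266). ALD4 also lost it without array 1, 2 or 3 (adjusted p = 0.0648 to 0.121) and ALD6 without array 2 (adjusted p = 0.0523). On arrays 4, 5, 9 and 10 alone and on the remaining arrays alone none of the 3 passed limma's test (adjusted p from 0.0879 to 0.413), with differences of -0.69 and -0.61 for ACO1, -0.53 and -0.59 for ALD6 and -0.47 and -0.57 for ALD4. ADH2, the alcohol dehydrogenase that oxidises ethanol and is itself strongly repressed by glucose, had -0.019 (95% interval from -0.23 to 0.19), and IDP2, the cytosolic isocitrate dehydrogenase, had -0.036 (95% interval from -0.28 to 0.21). The rest of the list that did not pass was PYC2 at -0.37, PYC1 at -0.31, CYB2 at -0.28, AGX1 at -0.24 and DLD1 at 0.049 (limma, adjusted p from 0.319 to 0.836).

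Among 9 regulators of these promoters, 5 had a negative and 4 a positive difference, with a median of -0.0025. Limma's test called 0 of the 9, a share that cannot be told from the 0.461% and 0.0886% of all genes called lower and higher. The lowest values were SIP4 at -0.63 (95% interval from -1.19 to -0.079, adjusted p = 0.337), ADR1 at -0.53 (from -0.90 to -0.16, adjusted p = 0.262) and CAT8 at -0.39 (from -0.76 to -0.026, adjusted p = 0.353). RDS2 and ERT1, which also activate gluconeogenic genes, had -0.0025 (from -0.41 to 0.40) and 0.24 (from -0.24 to 0.72). The rest of the list was MIG1 at -0.16, RTG1 at 0.014, RTG2 at 0.028 and RTG3 at 0.29. The median is over all 9 regulators, which were not split by role. SIP4 was below 0 on 4 of 7 replicates, with a mean of -1.045 for DJ28 in Cy3 and -0.22 for DJ28 in Cy5. The means of ADR1 and CAT8 were unequal the other way. ADR1 had -0.084 for DJ28 in Cy3 and -0.98 for DJ28 in Cy5, and CAT8 had -0.16 and -0.63.

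In the remaining lists counts of 0 are also what the share over all genes gives, so the values are given instead. Of the GID ubiquitin ligase, which degrades FBP1 and other gluconeogenic enzymes when glucose returns, 7 of 8 genes were tested and 0 were called, with differences from -0.17 (VID28) to 0.096 and a median of -0.022. Of the enzymes of the opposing glycolytic steps 0 of 7 were called, with 4 negative and 3 positive differences and a median of -0.023. The highest was PFK27 at 0.33 (95% interval from 0.015 to 0.64, limma, adjusted p = 0.36). PFK1, a subunit of phosphofructokinase, had the largest difference there, at -0.40 (95% interval from -0.66 to -0.13, limma, adjusted p = 0.235), and PFK2, the other subunit, had -0.37 (from -0.62 to -0.11, adjusted p = 0.249). These values are as large as those of PCK1 and MDH2. Of the carnitine shuttle, which carries acetyl units between compartments, 3 of 4 genes were tested and 0 were called, with CAT2 largest at -0.36 (95% interval from -0.58 to -0.15, adjusted p = 0.178).

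**Figure D4:**
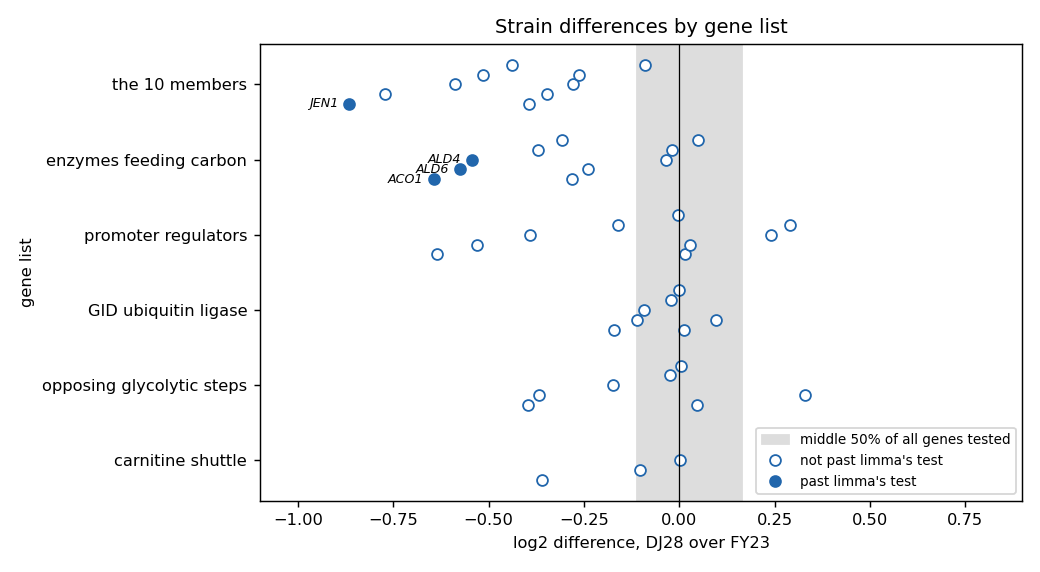
Log2 difference of DJ28 over FY23 for each tested gene of the 6 lists, with filled points for genes past limma's test and a grey band for the middle of all genes tested, from -0.11 to 0.16. All 10 genes described here lie left of 0 and 9 of them left of the band, and the GID ligase genes lie in or near it.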

How the data were processed

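The members, lists and tests were chosen with earlier results of these data known. The deposited table of the authors holds 1 log2 ratio of the 2 dyes per row and array, read as log2 from the values, but the sources used here do not state their normalization, background correction or filter. Column medians differ, and for arrays 1 to 10 they were -0.0855, -0.498, 1.383, 0.675, 0.8545, 0.665, 0.1985, 0.925, 0.633 and 0.605. Rows were named through the platform annotation (5663 rows with 1 symbol, 614 unnamed), and 5659 matched the R64 gene table by gene identifier. Values at the limit of 16.61 were treated as missing, array medians were subtracted and rows of a gene were averaged. Genes with at least 3 replicates in each orientation (5642) entered a model with a dye term and a strain term (limma 3.58.1, R 4.3.3), and p-values were adjusted by the Benjamini-Hochberg method over all of them at a threshold of 0.05. Arrays 6 and 7, which were nearly identical, were averaged. The text names all 10 members, PDE2, their isozymes and paralogues, and, from each other list, the genes past the test or otherwise the gene with the largest absolute difference. CAT8, ADR1, RDS2, ERT1, MIG1, RTG1, RTG2, RTG3, PFK2, PFK27, ADH2, IDP2, PYC1, PYC2, CYB2, AGX1 and DLD1 were named after their values were seen. The number of arrays limits the precision. Log ratios of arrays of the same orientation correlated at r from -0.0075 to 0.988, the highest being that of arrays 6 and 7. Arrays of opposite orientation correlated at r from -0.202 to 0.675, the highest being that of arrays 3 and 8. In these ratios, not yet turned to DJ28 over FY23, a strain difference changes sign between orientations and a dye effect does not. Alternatives covered replicates, array sets, dye orientations, centring, scaling, filters, weights and regression method.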

Additional observations from a re-analysis of the deposited data

Results flagged for a closer look

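Of 20 groups of replicates checked for a value far from the others (10 genes in each dye orientation), 2 were marked, where chance marks about 1 in 20. FBP1 on array 4 had a log2 ratio of DJ28 over FY23 of 0.633, against -0.458 to -0.198 on the other 4 arrays with DJ28 in Cy3, and without array 4 its fitted difference was -0.36 in place of -0.26 (it was -0.13 without arrays 6 and 7). MDH2 on array 3 had -1.129, against -0.485 to -0.43 on the other 4 arrays with DJ28 in Cy3, and without array 3 its difference was -0.28 in place of -0.35. Neither gene passed limma's test with or without that array.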

How the results depend on the processing

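No paired analysis was possible because the replicate numbers only name arrays and tie none to another, while the strains are compared within each array in every fit. The count of 1 lower gene among the 10 was 4 with array weights, 3 with all 10 arrays counted apart, 3 with robust regression and 3 on arrays 4, 5, 9 and 10 alone. It was 0 with no centring, 0 without arrays 1 and 2, 0 on the remaining arrays and 0 with either dye orientation alone, and ran from 0 (without array 9 or 10) to 3 (without array 3) with 1 replicate left out, while 0 genes were higher in any of the 23 alternative fits. Where the count was above 1 the genes added to JEN1 were MLS1 and ACS1, with MDH2 under array weights, PCK1 in place of ACS1 under robust regression and ACS1 alone without array 8. The median over those of the 10 genes that were tested stayed between -0.585 and -0.292. PCK1 was not tested on arrays 4, 5, 9 and 10 alone or without arrays 1 and 2, so the counts and medians there cover 9 genes. ICL1 turned positive with all 10 arrays counted apart (0.0089), with no centring (0.001), on the remaining arrays (0.1325) and with DJ28 in Cy5 alone (0.4986). The difference between ADY2 and ATO2 also turned, from -0.11 over all replicates to values between -0.28 and 0.064 with 1 replicate left out, and was positive without array 4 (0.064) or 5 (0.055). Over all genes 31 passed the main test, against 156 with array weights, 154 with robust regression, 79 with all 10 arrays apart, 4 with no centring, 6 without arrays 1 and 2, 2 with DJ28 in Cy5 alone, 0 with DJ28 in Cy3 alone or on the remaining arrays, and 10 to 79 with 1 replicate left out. The causes were not tested. Intensities are not used here, so signal over background is unknown.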
